A study of Mus musculus with 12 samples.

Results

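The change of expression that accompanies the passage from pachytene spermatocytes to spermatids was compared between 2 mouse strains. The members were chosen by their labels and comprised 8 arrays of the 12 in the series. They were the pachytene spermatocytes (RP) and the spermatids (ST) of PWD/Ph (PWD), an inbred strain of *Mus musculus musculus* origin, and of C57BL/6J (B6), the classical laboratory strain that is mainly of *M. m. domesticus* origin. Each of the 4 groups had 2 arrays. The males were 8 to 10 weeks old, the labels give them no treatment and no altered allele, and their cells were separated by fluorescence-activated cell sorting. The pachytene gate also takes in diplotene cells. The design text gives 2 animals as the source of the duplicates, but no label ties a replicate number to an animal, so p-values measure the spread between these samples. The 4 remaining arrays held prepachytene spermatocytes of the same strains and gave a further level of each gene. They were not part of the contrast. They did enter the estimate of spread behind each test, the background level and the choice of the brightest probeset.

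Spermatids are the haploid cells that follow the meiotic divisions. They build an acrosome and a tail, and replace histones first by transition proteins and then by protamines. Many of their transcripts are made in pachytene cells or round spermatids, stored, and translated later, so that the RNA of a spermatid reflects synthesis, storage and decay.

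The strain-dependent change was the difference between the spermatid and the pachytene value in PWD minus the same difference in B6, on the log2 scale of the deposited values. A positive value thus means a steeper rise or a shallower fall in PWD, and a negative value the opposite. It was tested with limma for 45037 probesets. A background level of 5.96 on the log2 scale was taken from the 95th percentile of 62 probesets for 37 genes of other organs, and a group was called above background when its mean lay above this level. At the 90th percentile, a level chosen after seeing the data, it would be 3.79.

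The labels were checked against 29 transcripts that mark spermatids. In B6 they averaged 10.21 and 10.06 in the 2 pachytene arrays and 13.40 in each spermatid array. In PWD they averaged 10.45 and 9.66 in pachytene cells and 12.61 and 13.07 in spermatids, so that both strains separated in the direction of their labels. PWD pachytene replicate 1 stood nearer to spermatids than the other pachytene arrays did. Its correlation with the 2 PWD spermatid arrays was 0.956 and 0.952 across probesets, against 0.933 and 0.929 for replicate 2 and 0.924 to 0.928 between B6 pachytene cells and spermatids. Of the 29 spermatid transcripts, 23 were higher in replicate 1 than in replicate 2, with a median difference of 0.97 on the log2 scale. The 3′ minus 5′ signal of *Gapdh*, a sign of RNA length, was 3.67 and 3.86 in PWD spermatids against 2.83 and 3.03 in B6 spermatids. That of *Actb* was 2.65 in each PWD spermatid array and 2.65 and 2.75 in B6 spermatids, so that the 2 transcripts differed in this respect, and a part of RNA length in the results was not tested.

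The change into spermatids differed between the strains for 1699 probesets (3.77% of those tested, limma with adjusted p under 0.05). It was more positive in PWD for 691 (1.53%) and more negative for 1008 (2.24%), and 1368 differed by at least 1 on the log2 scale. They named 1304 genes. The median over all probesets was -0.105, and over those above background in all 4 groups it was -0.313, so that the typical gene already leaned towards a lower change in PWD. The split moved with the scaling. After centring the arrays on the probesets above background, 1050 probesets were more positive and 626 more negative, which moved the share of positive calls from 40.7% to 62.6%. Single arrays moved it too: 544 probesets were more negative without B6 pachytene replicate 2, 615 without B6 pachytene replicate 1, and 1902 without B6 spermatid replicate 1. For 783 of the 1699 probesets (46.1%) no group mean was above background, and these are not described further. The remaining 916 comprised 397 with a more positive and 519 with a more negative change in PWD.

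**Figure D1:**
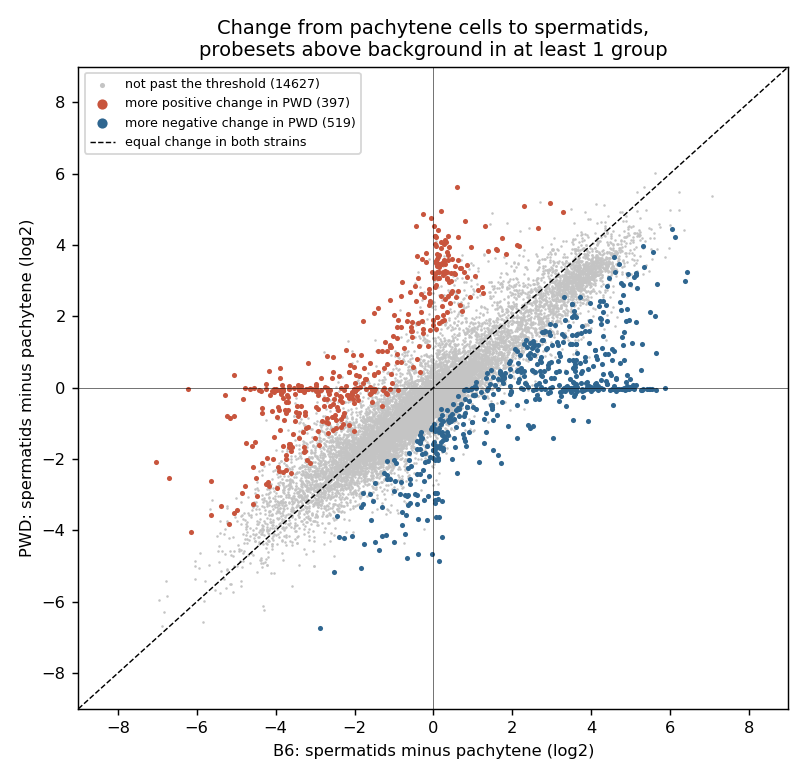
Each point is a probeset above background in at least 1 of the 4 groups, placed by its change from pachytene cells to spermatids in B6 (horizontal axis, log2) and in PWD (vertical axis, log2), with equal changes on the dashed line. The 519 probesets with a more negative change in PWD lie below the dashed line, many of them at a PWD change near 0. The 397 with a more positive change lie above it, many of them in 2 bands where 1 strain has a change near 0.

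Among these 916 probesets, the change into spermatids passed the test in B6 only for 382, in PWD only for 224 and in both strains with the same sign for 259. For 51 the strains moved in opposite directions, and both changes passed. Seen from the strain difference, 413 differed between PWD and B6 in spermatids only, 238 in pachytene cells only, and 235 in both populations in the same direction. In 23 the sign of the strain difference turned between the populations.

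The called probesets were sorted by the groups above background. These groups are read from the same means as the contrast, so their counts are a description and no test. Exactly 1 group was above background for 462 probesets, 27.2% of all calls. B6 spermatids were this group for 209 probesets of 167 genes, with a median difference of -3.39. B6 pachytene cells were the only such group for 115 (median 3.07), PWD spermatids for 97 (median 2.96) and PWD pachytene cells for 41 (median -2.37). Among all probesets of the array, those below background in both PWD groups but not in B6 numbered 1197, of which 362 (30.2%) were called. The reverse, B6 below background in both groups, held for 995 probesets, of which 167 (16.8%) were called. Of the 10216 probesets above background in all 4 groups, 219 (2.14%) were called. With the background at 3.79, 475 called probesets were above it in all 4 groups and 331 in none. Where a group lies below background, its true level is unknown and the size of a difference is set in part by how low the array reads, so that sizes are given as measured on the deposited scale.

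**Figure D2:**
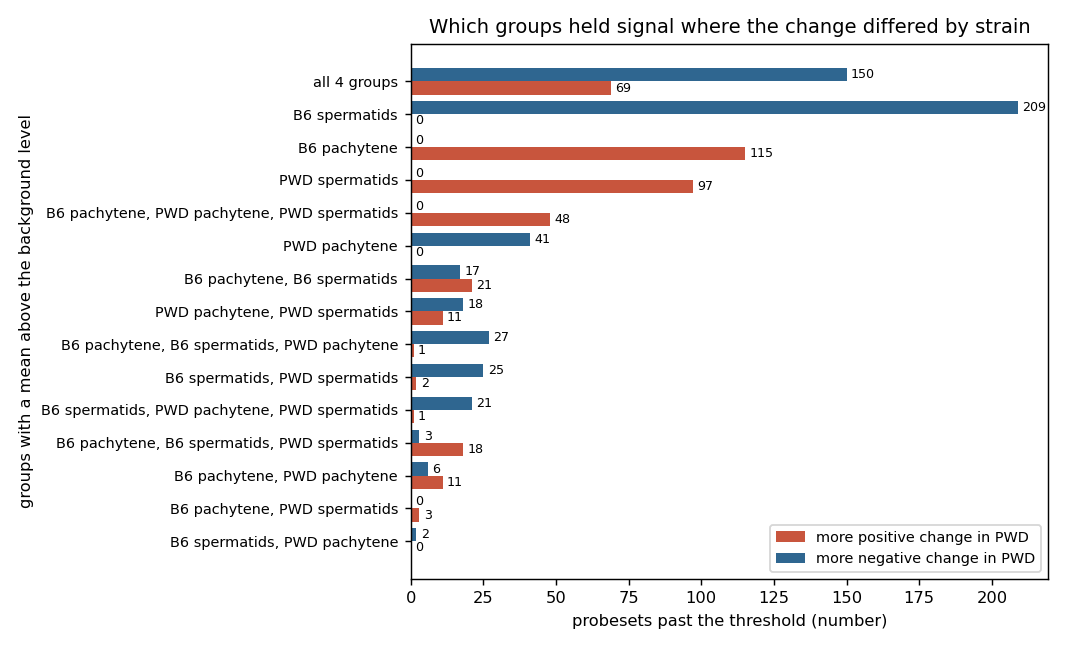
Bars give the number of probesets past the threshold for each combination of groups with a mean above background, separately for a more positive and a more negative change in PWD. The longest bar is the 209 probesets above background in B6 spermatids alone, followed by 150 more negative ones above background in all 4 groups.

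Prepachytene cells gave a further level for these patterns. Of the 362 called probesets that were below background in PWD pachytene cells and spermatids, 79 were above it in B6 prepachytene cells, and in 38 of these the PWD prepachytene mean was below it. In 45 of the 362 the PWD prepachytene mean was above it. In the reverse class, 52 of the 167 called probesets were above it in PWD prepachytene cells. In 19 of these 52 the B6 prepachytene mean was below it. The array carries probes that were designed on a reference close to B6, and whether sequence differences of PWD lower such values was not tested.

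The genes with the lowest contrasts were nearly all transcripts of B6 spermatids. Of the 15 named by rule, 14 were above background in this group alone, and in none of the 14 did a prepachytene mean exceed background. *Ces5a*, which encodes a secreted carboxylesterase, measured 7.47 and 7.42 in B6 spermatids and between 1.56 and 1.59 in the other 6 arrays. The B6 spermatids thus stood clear of all other arrays, with a difference of -5.88 ± 0.05 (SE, n = 2 arrays per group, limma adjusted p = 1.27e-09). A second probeset of *Ces5a* gave -4.71.

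*Cfhr3*, named for its likeness to complement factor H, measured 9.43 and 9.33 in B6 spermatids, 3.66 and 3.83 in B6 pachytene cells, and 2.95 to 3.04 in PWD (difference -5.70). *Rxra*, a retinoid X receptor that pairs with other nuclear receptors, measured 7.88 and 8.05 in B6 spermatids and 2.92 to 3.08 elsewhere (difference -4.95). For both genes only the B6 spermatids lay above background. Other probesets of *Rxra*, below background in all 4 groups, gave -0.18 and -0.10 and did not pass. *Tas1r1*, a subunit of the savoury taste receptor, measured 8.83 and 8.98 in B6 spermatids, with 3.47 and 4.19 in B6 pachytene cells and 2.09 to 2.12 in PWD. *Cpsf4l*, related to a factor that cleaves the 3′ end of transcripts, measured 9.65 and 10.13 in B6 spermatids, 5.09 and 4.60 in B6 pachytene cells and 3.07 to 3.10 in PWD. In *Cfhr3*, *Tas1r1* and *Cpsf4l* the strain difference in pachytene cells also passed the test, at -0.72, -1.72 and -1.76, with both strains below background.

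*Ston1*, an adaptor for vesicle uptake, gave -5.01, and *Sgip1*, which acts in clathrin coats, gave -5.05. The 2 probesets of *Ston1* above background gave -5.01 and -4.65. *Wwtr1*, the transcriptional coactivator TAZ, measured 9.43 and 9.32 in B6 spermatids and 2.47 in each PWD spermatid array (difference -5.36 ± 1.05, limma adjusted p = 0.0329). Its second probeset gave -4.93. The call of the first was lost in each of the 8 fits that left out 1 array. Prepachytene arrays, which entered the estimate of spread, read 4.07 and 2.64 in B6 and 3.10 and 5.60 in PWD. Within the 4 compared groups the standard deviation was at most 0.237. The other 6 of this pattern were *Prl3c1* of the prolactin family (-5.50), *Dscaml1*, a cell adhesion molecule (-5.13), and *4933412O06Rik*, *Gm10791*, *4930523O13Rik* and *4933416M06Rik*, which lie between -5.45 and -4.97. The exception among the 15 was *Rsad1*, a radical SAM protein, which was above background in PWD pachytene cells (7.64 and 8.01) and fell to 3.00 and 2.94 in PWD spermatids, whereas B6 stayed between 2.76 and 3.23.

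The 15 highest contrasts had more varied patterns. For 8 of them only B6 pachytene cells were above background, and the probeset that was called fell in B6 while its PWD means were below background. *Dapp1*, an adaptor of B cell receptor signalling, measured 9.71 and 9.48 in B6 pachytene cells and between 3.19 and 3.54 in the other 6 arrays (difference 6.19 ± 0.29, limma adjusted p = 2.18e-05). Its second probeset behaved otherwise: it stayed high in B6 spermatids (mean 8.98) and gave 0.81, with an adjusted p of 0.0795. *Ddx58*, the RNA sensor RIG-I, measured 6.85 and 6.76 in B6 pachytene cells and 2.20 to 2.29 elsewhere. *Manea*, a mannosidase of the Golgi, measured 8.76 and 8.61 in B6 pachytene cells and 3.21 to 3.49 elsewhere, while its prepachytene values were 10.43 and 10.30 in B6 and 3.95 and 3.24 in PWD. This gene was below background in all 3 populations of PWD. *Slc7a1*, a transporter of cationic amino acids, gave 4.66 and 3.40 in its 2 probesets above background, and was present in prepachytene cells of both strains (9.47 and 9.25 in B6, 7.25 and 8.16 in PWD). The other 4 were *Pisd-ps3*, *Rpl7l1*, *Dcaf7* and *Col25a1*, with values of 5.43, 4.77, 4.62 and 4.50. Brighter probesets of *Pisd-ps3*, *Rpl7l1* and *Dcaf7* did not pass the test and were high in PWD. The brightest of *Pisd-ps3* averaged 12.72, then 9.19 in B6 and 13.95, then 10.48 in PWD.

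A gain of signal in PWD spermatids alone was seen in 3 of the 15. *Lbh*, a transcription cofactor, measured 6.89 and 6.74 in PWD spermatids and 2.23 to 2.29 in the other 6 arrays. *Csmd1*, a membrane protein with complement control domains, measured 6.80 and 8.02 against 2.00 to 2.68. *Ms4a1*, the B cell antigen CD20, measured 7.65 and 7.90 in PWD spermatids, 3.98 and 2.05 in PWD pachytene cells and 1.91 to 1.99 in B6, and its 2 probesets gave 4.81 and 2.92. The second was above background in PWD pachytene cells too (mean 6.12). A part of immune cells in this value was not tested.

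In 2 of the 15, PWD pachytene cells were the only group below background. *Tekt5*, a tektin of the sperm tail, measured 10.15 and 10.04 in B6 pachytene cells, 9.79 and 9.52 in B6 spermatids, 3.02 and 2.62 in PWD pachytene cells and 7.32 and 7.40 in PWD spermatids. Of the 2 stages compared, it was above background in PWD only in spermatids and in B6 at both. The difference was 4.98 ± 0.26 (limma adjusted p = 3.81e-05). Its prepachytene values were 6.23 and 6.15 in B6 and 5.20 and 5.42 in PWD, the latter above those of PWD pachytene cells. *Mttp*, the microsomal triglyceride transfer protein, followed the same course, with 2.25 and 2.15 in PWD pachytene cells and 7.73 and 7.92 in PWD spermatids, but its second probeset stayed below background in both PWD groups and gave 0.36.

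In the last pair, B6 spermatids were the only group below background, by little in *Kidins220*. *Man2a2*, a Golgi mannosidase that trims N-glycans, measured 9.85 in each B6 pachytene array, 2.78 and 2.87 in B6 spermatids, 12.54 and 13.12 in PWD pachytene cells and 10.55 and 10.96 in PWD spermatids. *Kidins220*, a membrane scaffold of neurotrophin receptors, measured 9.66 and 9.59 in B6 pachytene cells, 5.77 and 5.68 in B6 spermatids, 10.05 and 10.01 in PWD pachytene cells and 10.43 and 10.74 in PWD spermatids. Its 3 probesets above background gave 4.45, 3.52 and 3.00. A further probeset of *Kidins220*, below background in every group, passed the test in the opposite direction at -1.03.

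**Figure D3:**
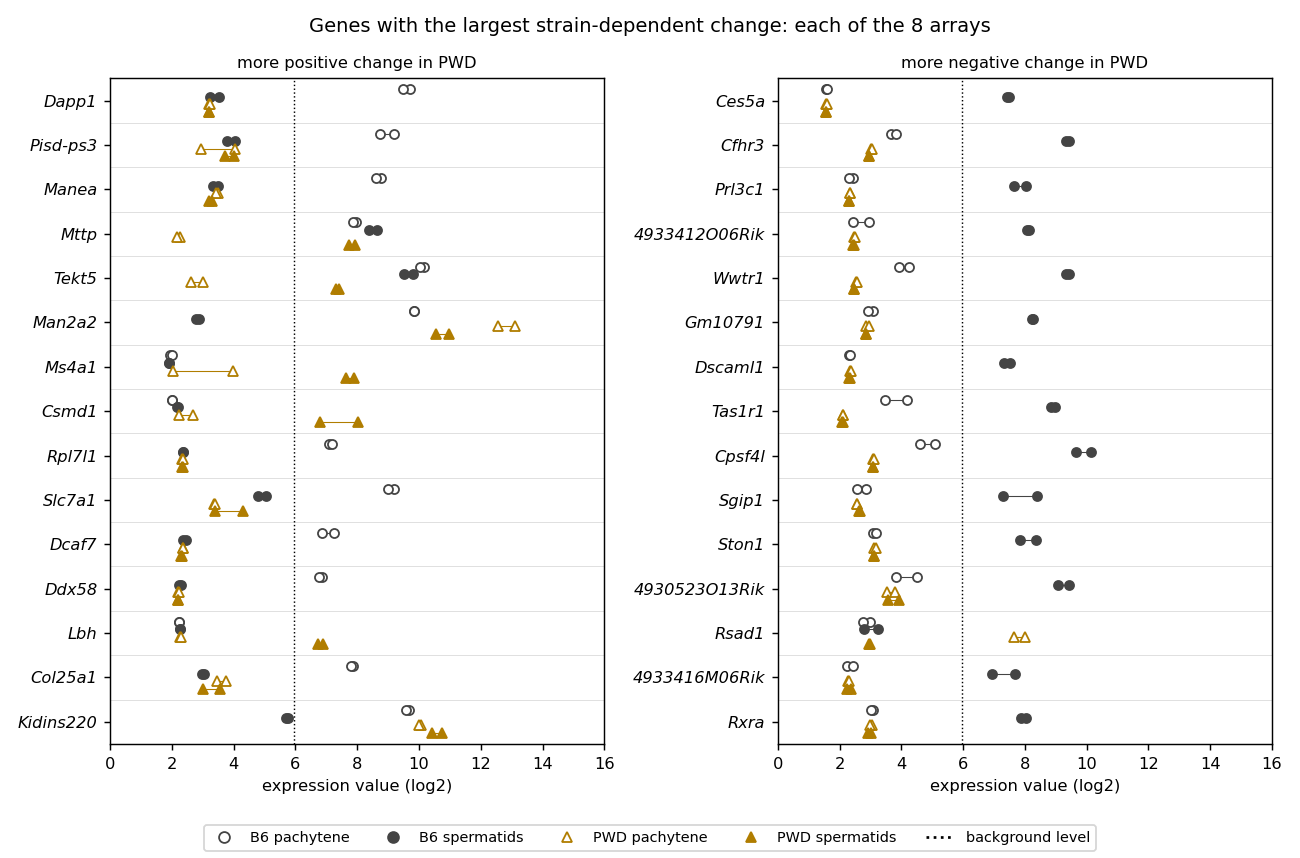
Expression values (log2, horizontal axis) of the 15 genes with the highest and the 15 with the lowest contrasts in each of the 8 arrays. Circles are B6, triangles PWD, open symbols pachytene cells and filled symbols spermatids, a line joins the 2 replicates of a group, and the dotted line is the background level of 5.96. In the right panel 14 of the 15 genes have only the B6 spermatids right of the line.

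With all values below background raised to it, the differences of these 30 genes kept their sign and their call. Most of them had been picked with only 1 group above background, and that group then sets the sign. Values raised to the same level have no spread, so the kept signs and calls lend no support. The raised values gave differences from 0.84 to 4.22 in the first set and from -3.93 to -1.36 in the second. This is the part of each difference that does not come from values below background. With the background at 3.79, 23 of the 30 had the same groups above it. In *Wwtr1*, *Tas1r1*, *Cpsf4l* and *4930523O13Rik* B6 pachytene cells were then above it as well, in *Kidins220* B6 spermatids, and in *Pisd-ps3* and *Slc7a1* the spermatids of both strains.

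The 219 called probesets above background in all 4 groups are less exposed to the floor of the array. Of these, 69 had a more positive change in PWD and 150 a more negative one. This split turned with the scaling, to 204 and 113 after repeated quantile normalization and 161 and 107 after centring, and it was 59 and 350 without PWD spermatid replicate 2. The 10 genes at either end were chosen after the patterns above were known. *Oxct1*, the enzyme with which mitochondria use ketone bodies, rose in B6 from 11.11 and 10.87 to 12.19 and 12.12, and fell in PWD from 10.36 and 10.41 to 8.35 and 8.29. The spermatids of the strains did not overlap, and the difference was -3.23 ± 0.32 (limma adjusted p = 0.00127). Of its other 3 probesets above background, those that passed gave -3.81 and -2.06, and the last gave -2.20 with an adjusted p of 0.064.

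*Lmbr1*, a membrane protein whose introns hold a limb enhancer, had the same course, with a second called probeset at -2.19 and another at -0.25 that did not pass. It measured 8.36 and 7.77 in B6 pachytene cells, 10.08 and 9.83 in B6 spermatids, 8.19 and 7.83 in PWD pachytene cells and 6.92 and 6.95 in PWD spermatids (difference -2.97). In *Oxct1* and *Lmbr1*, as in *Tubg1*, the gamma-tubulin of centrosomes (-2.57), and *Hacd2*, an enzyme of very long fatty acids (-2.40), the rise in B6 and the fall in PWD both passed the test.

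*Dbndd1*, a dysbindin-related protein, measured 9.79 and 9.69, then 10.06 and 9.86 in B6 and fell in PWD from 9.49 and 9.94 to 6.85 and 6.24, which gave -3.40, the lowest contrast of this set. *Trnt1*, the enzyme that adds CCA ends to transfer RNA, and *Rpp14*, a subunit of ribonuclease P, both act on transfer RNA and fell in PWD by 2.62 and 3.00 on the log2 scale. In B6 the change of *Trnt1* was -0.23 and did not pass, and *Rpp14* fell by 0.71. The contrasts of *Trnt1* and *Rpp14* were -2.39 and -2.29. A second probeset of *Trnt1* was called at -3.53. That of *Rpp14*, below background in all 4 groups, fell alike in both strains, from 5.42 to 2.85 in B6 and from 5.51 to 2.68 in PWD. It gave -0.26 and did not pass.

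*Kpna1*, a nuclear import receptor, measured 7.88 and 7.40 in B6 pachytene cells and 10.33 and 10.27 in B6 spermatids, against 5.80 and 7.04, then 6.81 and 6.29, in PWD. It gave -2.54, and all 4 of its probesets above background were called, at -2.54 to -1.95. The call of the first was lost in 6 of the 8 fits that left out 1 array. *Ccdc93*, of a complex that recycles receptors, gave -2.65, but another probeset above background gave 0.0042, and *Epb41l4a*, of the band 4.1 family, gave -2.42.

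In the opposite direction, *Tmem130*, a membrane protein, fell in B6 from 11.37 and 11.56 to 10.08 and 9.82 and rose in PWD from 7.10 and 6.80 to 9.33 and 8.78. Its difference was 3.62 ± 0.38 (limma adjusted p = 0.00170). *Hook3*, a dynein adaptor on microtubules, fell in B6 from 7.68 and 7.62 to 6.49 and 6.81 and rose in PWD from 8.41 and 7.83 to 9.98 and 10.31 (difference 3.03). The other probesets of *Hook3* were below background in all 4 groups and did not pass. *Sbsn*, suprabasin, also fell in B6 and rose in PWD, with both changes past the test (difference 2.53). Another probeset of *Sbsn* above background gave 1.71 and did not pass (limma adjusted p = 0.0793).

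*Fen1*, the flap endonuclease of DNA replication and repair, measured 13.83 to 14.28 in B6, and rose in PWD from 11.70 and 10.55 to 14.51 and 13.88 (difference 3.06). Its other probeset was below background in all 4 groups, gave 1.29 and did not pass. *Mapk10*, the kinase JNK3, measured 9.51 to 9.74 in B6 and rose in PWD from 6.45 and 5.54 to 8.42 and 9.10 (difference 2.88), and its second probeset gave 2.44. *Ndufa1*, an X-linked subunit of respiratory complex I, was 10.21 to 10.87 in B6 and rose in PWD from 7.50 and 7.66 to 9.14 and 9.71 (difference 2.38). For these 3 genes the strains lay further apart in pachytene cells than in spermatids.

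*Trappc1*, of a vesicle tethering complex, *Usp46*, a deubiquitinase, and *Cblb*, a ubiquitin ligase, fell in B6 by 2.13, 2.13 and 2.62 on the log2 scale while their changes in PWD, 0.44, 0.44 and -0.08, did not pass. *Corin*, the protease that activates natriuretic peptides, gave 2.63, and its call was lost in 5 of the 8 fits that left out 1 array, those of *Fen1* and *Usp46* in 3.

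**Figure D4:**
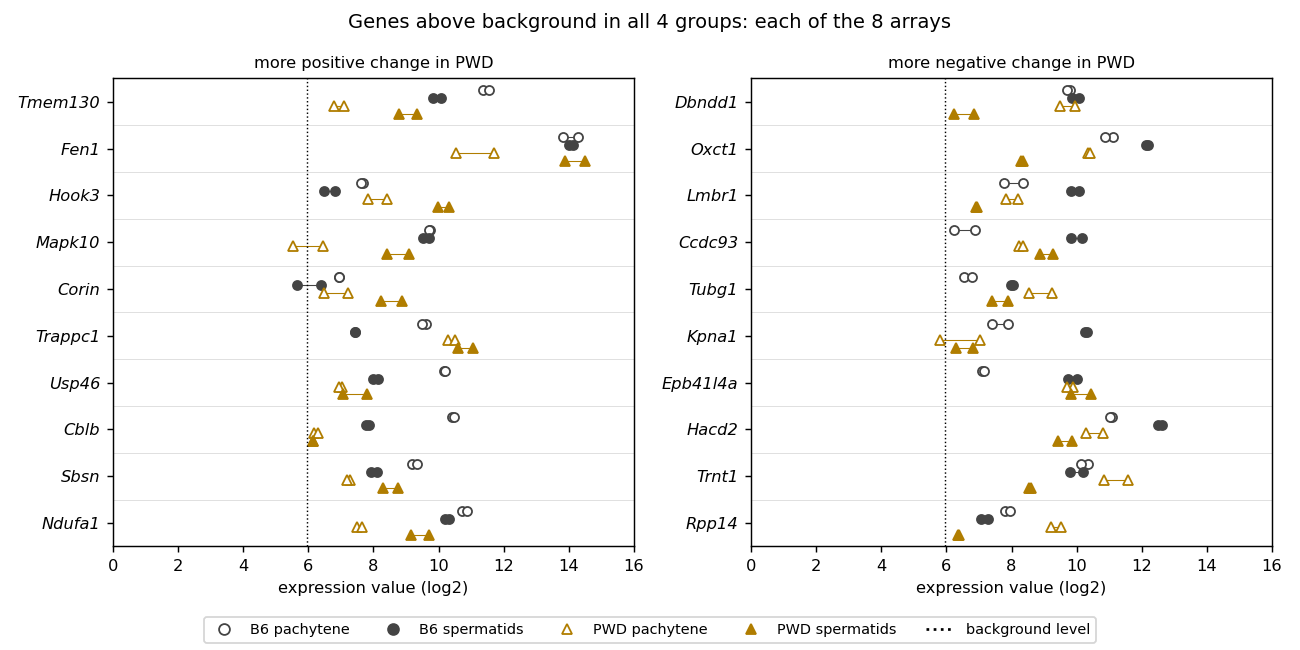
Expression values (log2, horizontal axis) of the 10 genes at either end among those above background in all 4 groups, with symbols for strain and population as given in the legend and the background level of 5.96 as a dotted line. *Oxct1* and *Lmbr1* show the B6 spermatids above, and the PWD spermatids below, the pachytene cells of both strains.

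Several probesets of a gene can be set against each other as repeated measurements. Of 334 called probesets whose gene had another probeset above background, that other probeset was called in the same direction for 81 (24.3%) and in the opposite direction for 1, and it had the same sign for 249 (74.6%). Above background in all 4 groups, 29 of 105 (27.6%) were called in the same direction. At least 2 called probesets in the same direction were found for 45 genes, 19 with a more positive and 26 with a more negative change in PWD. The genes with at least 3 were *Kpna1*, *Oxct1*, *Kidins220* and *Glrx2*, the last a mitochondrial glutaredoxin that was picked after its values were seen. *Glrx2* rose in B6 from 10.15 and 10.04 to 13.08 and 13.14, and in PWD from 10.83 and 11.33 to 11.95 and 12.57. Its 3 probesets gave -1.83, -1.76 and -1.47, and the first lost its call in 6 of the 8 fits without 1 array.

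The 250 bases before the gene starts were searched in the RefSeq promoters of GRCm38.p6 for TGACGTCA, the cAMP response element bound by the spermatid activator CREM, and for TATAAA, on both strands. Of 147 genes named by rule or drawn from the lists, 115 had a promoter in the table. *Mapk10* and *Slitrk2* held TGACGTCA (1.74% of 115, against 1.77% of the 27025 genes with a promoter), and 14 held TATAAA (12.2% against 14.3%). The promoters shown were chosen because *Mapk10* has a start site with either motif, and *Prm2* is the called protamine gene, with motif letters in capitals and the strand of the gene read 5′ to 3′. In *Prm2* the capitals are the motif of the opposite strand.
Mapk10, the start site with the cAMP response element, chr5:103211335-103211584, minus strand: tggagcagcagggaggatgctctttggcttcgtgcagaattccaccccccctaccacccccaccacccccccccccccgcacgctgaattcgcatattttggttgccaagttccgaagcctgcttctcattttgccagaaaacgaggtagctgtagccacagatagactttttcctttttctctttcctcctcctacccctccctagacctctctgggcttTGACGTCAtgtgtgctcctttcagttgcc
Mapk10, the start site with TATAAA, chr5:103058393-103058642, minus strand: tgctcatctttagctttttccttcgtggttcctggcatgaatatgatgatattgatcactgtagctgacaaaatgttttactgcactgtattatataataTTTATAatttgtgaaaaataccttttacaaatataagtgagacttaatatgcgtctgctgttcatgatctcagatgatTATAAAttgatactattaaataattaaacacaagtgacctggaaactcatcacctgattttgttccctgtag
Prm2, the called protamine gene, chr16:10792106-10792355, minus strand: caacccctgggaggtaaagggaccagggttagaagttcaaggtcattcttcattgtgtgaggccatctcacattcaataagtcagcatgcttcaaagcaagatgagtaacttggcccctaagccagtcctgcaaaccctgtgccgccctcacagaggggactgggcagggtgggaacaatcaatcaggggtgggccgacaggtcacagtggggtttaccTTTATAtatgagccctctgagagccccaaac

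The promoters of *Tnp2*, *Kidins220*, *Oxct1* and *Tekt5* held neither of these letters in the window. Of the 167 genes called with signal in B6 spermatids alone, 139 had a promoter, of which 2 (1.44%) held TGACGTCA and 23 (16.5%) held TATAAA.

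Gene lists were read at 1 probeset per gene, the brightest. Over 18193 genes, 343 (1.89%) had a more positive and 504 (2.77%) a more negative change in PWD, and the median was -0.13 over all genes and -0.28 over the 9191 genes above background in at least 1 group. Over all genes, 71.3% lay below 0. With all arrays, the lists of spermatid products had medians below those of all genes, with few members past the test. So did the 21 pachytene and diplotene markers, with a median of -0.45, 19 below 0 and no call.

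Spermatid nuclear proteins, which condense the nucleus, had a median of -0.67, with 17 of 18 below 0 and 2 called. *Tnp2*, transition protein 2, rose in B6 from 6.06 and 6.13 to 12.15 and 12.13 and in PWD from 6.68 and 6.28 to 10.67 and 11.19 (difference -1.59 ± 0.34, limma adjusted p = 0.0468). *Prm2*, protamine 2, rose from 8.11 and 7.88 to 12.68 and 12.74 in B6 and from 8.28 and 8.54 to 11.70 and 12.07 in PWD (difference -1.23 ± 0.24, limma adjusted p = 0.0304). The strains overlapped in neither gene in spermatids. In prepachytene cells *Tnp2* measured 10.77 and 10.67 in B6 and 12.18 and 12.74 in PWD. *Prm2* measured 11.55 and 11.73 in B6 and 13.29 and 13.44 in PWD there. Both genes thus read higher in prepachytene than in pachytene cells, and higher in PWD than in B6 prepachytene cells. The source of this signal was not tested, which limits the reading of the smaller rise in PWD. *Tnp1* and *Prm1*, the other transition protein and protamine, gave -1.21 and -1.09 with adjusted p = 0.0633 and 0.0818, and *Rnf8*, the ubiquitin ligase that prepares histone removal, gave 1.43 with an adjusted p of 0.107. The call of *Tnp2* was lost in each fit without 1 array except the fit without PWD spermatid replicate 2, and that of *Prm2* in 5 of the 8. It was kept for *Prm2* without PWD pachytene replicate 1, B6 pachytene replicate 1 or PWD spermatid replicate 2.

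The medians of the other lists of spermatid products were below 0 as well. Of 29 spermatid markers, 28 were below 0 (median -0.58) with 1 more positive, *Tekt5*, and 2 more negative, *Tnp2* and *Prm2*. Acrosome proteins had 35 of 37 below 0 (median -0.46) and sperm tail proteins 40 of 45 (median -0.40), where *Tekt5* was the only call. Neither the 23 sperm energy enzymes (median -0.37) nor the 27 sperm channels and signalling genes (median -0.43) held a call, and the 20 sperm surface genes (median -0.48) held 1, *Rnase10*, a secreted protein of the ribonuclease A family, which was below background in PWD. These medians moved with PWD pachytene replicate 1. Without it the median of the spermatid markers was -0.13 with 18 of 29 below 0, and that of the acrosome proteins was -0.07 with 21 of 37, both above the median of -0.29 that genes above background had in that fit. Without replicate 2 they were -1.15 and -0.89. After repeated quantile normalization the medians were -0.19 and -0.16, and that of all genes above background was 0.04.

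Among the 27 ubiquitin ligases and conjugating enzymes the median was -0.63, and 2 were called with a more negative change. *Ube2j1*, a conjugating enzyme of the endoplasmic reticulum, rose from 10.42 and 10.41 to 12.89 and 12.92 in B6 and from 10.76 and 10.78 to 11.72 and 12.05 in PWD (difference -1.38 ± 0.20, limma adjusted p = 0.00856), and its call held in every alternative fit. *Spopl*, an adaptor of a cullin ligase, measured 7.91 and 7.64, then 7.39 and 7.33 in B6, and fell from 8.28 and 8.72 to 6.32 and 5.85 in PWD (difference -1.99), with a call that was lost in 5 of the 8 fits without 1 array. *Rfx3*, a regulator of genes of cilia, was the only call among 22 germ cell transcription regulators (-1.86, adjusted p = 0.0416) and lost it in 6 of these fits.

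With all arrays, the lists of prophase and the divisions had higher medians than those of spermatid products. The 33 genes of meiotic prophase had a median of -0.01, with 17 below 0 and no call. Without PWD pachytene replicate 1 their median was -0.09, between those of spermatid markers (-0.13) and acrosome proteins (-0.07). Tail and nuclear proteins stayed lower in that fit, at -0.23 and -0.65. With all arrays, the 35 genes of the meiotic divisions had a median of -0.14 and 2 calls, both with a more positive change. *Kif11*, the spindle kinesin Eg5, fell in B6 from 8.28 and 8.10 to 5.52 and 4.53 and measured 6.78 and 5.67, then 6.94 and 6.88 in PWD (difference 3.85 ± 0.57, limma adjusted p = 0.0101). *Cks1b*, a subunit of cyclin-dependent kinases, fell in B6 from 9.77 and 9.54 to 8.54 and 8.62 and measured 9.10 and 9.76, then 9.67 and 9.94 in PWD (difference 1.45), with a call that was lost in 6 of the 8 fits without 1 array. *Tdrd5*, a tudor protein of the germ granule, fell in B6 from 9.91 and 9.68 to 3.98 and 4.33 and in PWD from 11.64 and 12.16 to 8.25 and 8.43 (difference 2.07, adjusted p = 0.0497). It was the only call among 31 genes of RNA storage and the piRNA pathway, and was lost in each of the 8 fits without 1 array. With values raised to the background level its difference was 0.27, with an adjusted p of 0.694.

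Genes of protein synthesis and energy supply showed single calls. *Rpl10a* of the large ribosomal subunit was the only call of 46 ribosomal proteins. It fell from 11.86 and 11.88 to 8.72 and 9.01 in B6 and from 12.45 and 12.76 to 11.04 and 11.34 in PWD (difference 1.59 ± 0.21, limma adjusted p = 0.00653), and its call held in every alternative fit. The 94 genes of the respiratory chain and ATP synthase held 4 calls, *Ndufa1* at 2.38 and the assembly factor *Ndufaf3* at 0.78 on the positive side, and the assembly factor *Ndufaf2* at -1.27 and *Cox6a2*, below background in every group, at -0.25 on the negative side. The calls of *Ndufaf2* and *Ndufaf3* were each lost in 6 of the 8 fits without 1 array. None of the 39 proteasome subunits was called (median -0.24), and 34 of them and 37 of the 46 ribosomal proteins lay below 0.

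**Figure D5:**
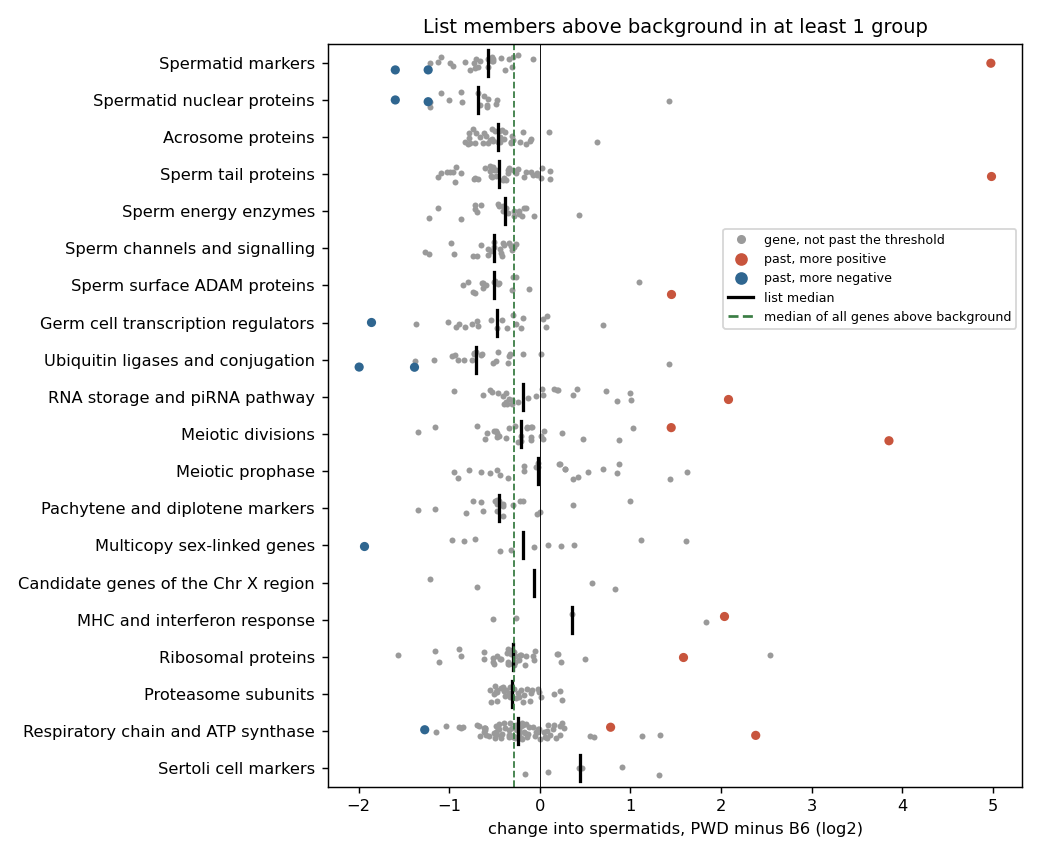
Each dot is a gene of a list that was above background in at least 1 group, placed by its strain-dependent change (log2, horizontal axis). Black bars are list medians and the dashed line is the median of all such genes, -0.28. Most members of the spermatid lists lie left of zero and grey, with *Tekt5* at 4.98 far to the right.

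Genes of Chr X are silenced in pachytene cells and partly reactivated in spermatids. The 177 X-linked genes above background in at least 1 group had a median change of 3.71 in B6 and 3.11 in PWD. The filter itself favours a rise. In B6, 161 were above background in spermatids and 54 in pachytene cells, and in PWD 159 and 58. Over all 618 X-linked genes the median change was 0.14 in B6 and 0.0015 in PWD. Of the 177, 4 had a more positive and 9 a more negative change in PWD (7.34%, against 5.85% of autosomal genes above background). Their median contrast was -0.54 against -0.28. Without PWD pachytene replicate 1, 89 of the 177 were below 0, against 134 with all arrays, and without replicate 2 the median was -1.04.

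The 6 genes looked up here from the Chr X region studied for hybrid sterility held no call, and other genes of the region were not analysed here. *4933436I01Rik* measured 4.69 and 5.12, then 10.04 and 9.97 in B6, and 6.67 and 4.42, then 9.09 and 9.77 in PWD (difference -1.21 ± 0.88, adjusted p = 0.4). *Ctag2*, a cancer/testis antigen, rose to 10.88 and 11.06 in B6 spermatids and 10.21 and 10.62 in PWD spermatids (difference -0.70). *Fmr1nb*, a neighbour of *Fmr1*, measured 8.43 and 8.50 in B6 spermatids and 8.26 and 8.73 in PWD spermatids (difference 0.58). *Fmr1*, which encodes an RNA-binding protein of translation, gave 0.83, and *Aff2* and *Slitrk2* were below background in every group. The 2 PWD pachytene arrays were far apart for *4933436I01Rik* and for *Fmr1nb* (5.76 and 3.08), which limits these comparisons. The 16 multicopy genes listed as sex-linked also took in *Speer* genes, such as *Speer3* and *Speer4cos* of Chr 5. The only call of this list was the autosomal *Speer4cos* (-1.94). Its probes may be shared with near-identical copies, and its call was lost in 6 of the 8 fits without 1 array. Neither the 7 single-copy Y genes (median -0.32) nor the 12 genes listed as autosomal retrogenes of X-linked parents (median -0.26) held a call. Of the latter, *Hnrnph2* lies on Chr X.

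Among 26 genes of MHC and the interferon response, 3 were called with a more positive and 1 with a more negative change in PWD. *H2-K1*, a class I antigen, fell in B6 from 9.54 and 9.50 to 7.27 and 7.02 and measured 9.19 and 9.42, then 8.73 and 9.20 in PWD (difference 2.03 ± 0.36, limma adjusted p = 0.0215), with a call lost in 4 of the 8 fits without 1 array. Its prepachytene values were 13.29 and 13.16 in B6 but 8.88 and 9.58 in PWD. PWD thus read between 8.73 and 9.58 in all 3 populations, and whether its sequence affects this probeset was not tested. The other 3, *Mx1*, *Mx2* and *Irf7*, were below background in every group and gave 1.10, 0.68 and -0.28.

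Markers of other testis cells held no call. The 16 Sertoli cell markers averaged 5.12 and 5.50 in PWD spermatids, 4.68 and 4.82 in B6 spermatids, and 4.07 to 4.42 in pachytene cells, with 6 above background in PWD spermatids and 5 in B6 spermatids. Of the 16, 6 had a contrast below 0, and the median was 0.27. *Amhr2*, the receptor of anti-Müllerian hormone, measured 8.36 and 8.68 in PWD spermatids against 7.45 and 7.63 in B6, and *Ctsl*, a protease of Sertoli cells, 9.56 and 10.05 against 7.80 and 8.29. The Leydig marker *Cyp17a1* measured 5.58 and 6.16 in PWD spermatids and 2.51 to 2.98 in the other pachytene and spermatid arrays (difference 3.05, limma adjusted p = 0.101). The 6 Leydig markers as a list did not share this: 4 had a contrast below 0, and the median was -0.08. The means of all 6 were below background in all 4 groups. Spermatogonia markers averaged 3.83 and 3.86 in PWD spermatids and 3.45 to 3.69 in the other arrays. The 15 peritubular, blood and immune markers averaged 3.43 and 3.39 in PWD spermatids and 3.31 and 3.44 in B6 spermatids, and the 37 genes of other organs had a median contrast of -0.13. The part of other cells in the calls with a gain in PWD spermatids was not tested, and in sorted populations a share of cells and the RNA per cell cannot be told apart.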

How the data were processed

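Total RNA of sorted testicular cells (15 to 40 ng) was amplified by the Affymetrix two-cycle protocol and hybridized to mouse 3′ expression arrays, 1 per sample. The authors deposited log2 expression values per probeset. The submitters' processing notes name GCRMA, and its version is not given in the sources used here. Of 45101 probesets, 64 controls were left out and 45037 were tested. A supplied platform annotation gave 34945 probesets 1 gene, 932 several and 9160 none, and 61 of the first were not found in the RefSeq table (GRCm38.p6). Where a gene had several probesets, the brightest represented it in the lists.

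Means of the 6 groups over all 12 arrays were estimated in R 4.3.3 by limma 3.58.1 with a trended variance prior, and the strain-dependent change was tested with Benjamini-Hochberg adjustment over all probesets. Tables were made with Python 3.11.15 and pandas 2.3.3. The fit was tested on simulated data. The named genes were the 15 highest and 15 lowest contrasts among called probesets of 1 gene with at least 1 group above background, in which the array pairs of the strains did not overlap. Called members of the lists and the genes of the Chr X region were added. The 10 genes at either end above background in all 4 groups, and *Glrx2*, were added after values were seen. The members and lists were chosen with earlier results of these data known. The alternatives varied the arrays fitted, variance prior, array weights, scaling, floor, threshold, replicate block and probeset, and left out each array in turn. The small number of arrays limits the precision.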

Additional observations from a re-analysis of the deposited data

Results flagged for a closer look

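The change from pachytene cells to spermatids differed between PWD and B6 in the limma test of the difference itself for the genes given here, with the PWD change minus the B6 change on the log2 scale in parentheses. Among the genes named by rule it was more positive in PWD for *Dapp1* (6.19), *Pisd-ps3* (5.43), *Manea* (5.07), *Mttp* (5.02), *Tekt5* (4.98), *Man2a2* (4.94), *Ms4a1* (4.81), *Csmd1* (4.77), *Rpl7l1* (4.77), *Slc7a1* (4.66), *Dcaf7* (4.62), *Ddx58* (4.53), *Lbh* (4.52), *Col25a1* (4.50) and *Kidins220* (4.45). It was more negative for *Ces5a* (-5.88), *Cfhr3* (-5.70), *Prl3c1* (-5.50), *4933412O06Rik* (-5.45), *Wwtr1* (-5.36), *Gm10791* (-5.33), *Dscaml1* (-5.13), *Tas1r1* (-5.09), *Cpsf4l* (-5.06), *Sgip1* (-5.05), *Ston1* (-5.01), *4930523O13Rik* (-5.00), *Rsad1* (-5.00), *4933416M06Rik* (-4.97) and *Rxra* (-4.95).

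Among the genes above background in all 4 groups it was more positive in PWD for *Tmem130* (3.62), *Fen1* (3.06), *Hook3* (3.03), *Mapk10* (2.88), *Corin* (2.63), *Trappc1* (2.57), *Usp46* (2.57), *Cblb* (2.54), *Sbsn* (2.53) and *Ndufa1* (2.38). It was more negative for *Dbndd1* (-3.40), *Oxct1* (-3.23), *Lmbr1* (-2.97), *Ccdc93* (-2.65), *Tubg1* (-2.57), *Kpna1* (-2.54), *Epb41l4a* (-2.42), *Hacd2* (-2.40), *Trnt1* (-2.39) and *Rpp14* (-2.29).

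Of the other genes it was more positive in PWD for *Rnase10* (1.45), *Tdrd5* (2.07), *Kif11* (3.85), *Cks1b* (1.45), *H2-K1* (2.03), *Mx1* (1.10), *Mx2* (0.68), *Rpl10a* (1.59) and *Ndufaf3* (0.78). It was more negative for *Tnp2* (-1.59), *Prm2* (-1.23), *Rfx3* (-1.86), *Speer4cos* (-1.94), *Irf7* (-0.28), *Spopl* (-1.99), *Ube2j1* (-1.38), *Ndufaf2* (-1.27), *Cox6a2* (-0.25) and *Glrx2* (-1.83). *Mx1*, *Mx2*, *Irf7* and *Cox6a2* were below background in every group. With 2 arrays per group, no group was searched for single outlying arrays.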

How the results depend on the processing

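With all arrays, 691 probesets had a more positive and 1008 a more negative change in PWD. These counts were 1142 and 6961 when the 8 pachytene and spermatid arrays were fitted alone, 1427 and 7187 with array weights, 1050 and 626 after centring on probesets above background, and 320 and 398 at an adjusted p under 0.01. With array weights and a difference of at least 1, chosen after seeing the data, they were 1151 and 1387. Leaving out 1 array gave 551 to 996 more positive and 544 to 1902 more negative. The 20 called list members became 48 with 8 arrays, 62 with array weights, 34 with array weights and a difference of at least 1, 37 with values floored at background and 8 at an adjusted p under 0.01, and 9 to 33 when 1 array was left out. The cause of these shifts was not tested.

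Same-numbered replicates did not deviate together (correlations of -0.298 to 0.126), so the numbers were not taken to pair samples. With the replicate number as a block the counts were 595 and 784, and with the replicate block within strain they were 471 and 602.

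No alternative fit reversed any of the 50 genes named by rank. They were picked as the largest contrasts of these arrays, and settings of variance, weights and block leave the contrast as it is, so this lends no support. At an adjusted p under 0.01, 41 kept their call, and with the replicate block within strain 44 did. Among probesets above background, others of the same gene reversed the sign in *Pisd-ps3* (-0.67), *Rpl7l1* (-0.05), *Dcaf7* (-0.75 and -0.83) and *Ccdc93* (0.00). A probeset of *Kidins220* below background gave -1.03, adjusted p = 0.0363 in limma. Differences measured against a group below background rest in part on how low the array reads, and probes were not matched to PWD sequence here.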
